A study of Mus musculus with 6 samples.

Results

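Integrins and laminins were examined in hippocampal RNA from 3 Ube3am+/p+ (WT) and 3 Ube3am-/p+ male mice, with 1 library per mouse. All genes whose symbol names an integrin alpha chain, an integrin beta chain or a laminin chain were taken, whatever their values. This gave 37 of the 25239 gene symbols listed, 26 integrins and 11 laminins. All mice were on the C57BL/6 background and were 6 to 8 weeks old. Ube3am-/p+ mice, a model of Angelman syndrome, lack a functional maternal copy of *Ube3a* and keep the paternal copy, which most neurons silence and most other cells use. The values are numbers of reads (or read pairs) counted on each gene, and levels are given as CPM, the usual unit that divides a gene's counts by all gene counts of its library.

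Integrins are cell surface receptors made of an alpha and a beta chain. They hold cells to the extracellular matrix and to each other, and they pass signals into the cell through adaptors such as talin and kindlin. Laminins are secreted trimers of an alpha, a beta and a gamma chain that build basement membranes, which in the brain lie around blood vessels and under the meninges. In the hippocampus, integrins are also known from synapses, and the leukocyte integrins from microglia.

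WT libraries held 7293272 to 8675252 gene counts and Ube3am-/p+ libraries 8871052 to 11314409. *Ube3a* had 104, 141 and 151 CPM in WT mice 1, 2 and 3 and 96.8, 82.9 and 80.6 CPM in Ube3am-/p+ mice 1, 2 and 3, so that the genotypes did not overlap. Its log2 difference was -0.58 (edgeR adjusted p = 0.0363), and -0.20 (edgeR adjusted p = 0.241) after the correction for GC content described next. Neuronal and hippocampal markers were present in all libraries, with 5168 to 5933 CPM of *Camk2a* and 1515 to 2394 CPM of *Hpca*. The libraries differed in how expression followed the GC content of transcripts. Across genes, which are not replicates, Spearman's rho of GC content with each gene's departure from its 6-library mean was -0.506 for WT mouse 2 and -0.571 for WT mouse 3, but 0.526 for Ube3am-/p+ mouse 2 and 0.528 for Ube3am-/p+ mouse 3. The mice numbered 1 lay between them, at 0.0455 (WT) and 0.0589 (Ube3am-/p+). Values corrected within each library for transcript GC content and length are therefore given beside some of the results they move. Values from the mice numbered 2 and 3 alone are given for the integrin and laminin genes called there. In bulk tissue, fewer cells of a type and less RNA per cell cannot be told apart.

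Of the 29 integrin and laminin genes tested, 1 was differentially expressed (3.45%, against 2.01% of all genes tested). This gene was *Itga4*, which encodes the alpha4 chain that pairs with beta1 or beta7 and binds VCAM1 and fibronectin. It was lower in Ube3am-/p+ mice. Its call was lost after the correction (edgeR adjusted p = 0.0845) and when some of the mice were left out singly. *Itga4* and *Itgav* had the lowest log2 fold changes of the integrin and laminin genes tested, and the 250 bases before their annotated starts are shown here for that reason (RefSeq, GRCm38.p6, 5′ to 3′). The stretch of *Itga4* lies at chr2:79255176-79255425 and that of *Itgav* at chr2:83724147-83724396, both on the plus strand. Capitals mark the GC box GGGCGG, searched on both strands.
Itga4: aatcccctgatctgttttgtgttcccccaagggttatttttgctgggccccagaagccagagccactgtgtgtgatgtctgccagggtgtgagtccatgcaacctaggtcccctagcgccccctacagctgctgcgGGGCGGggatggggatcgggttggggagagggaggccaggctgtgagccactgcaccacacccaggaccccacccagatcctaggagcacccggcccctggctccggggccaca
Itgav: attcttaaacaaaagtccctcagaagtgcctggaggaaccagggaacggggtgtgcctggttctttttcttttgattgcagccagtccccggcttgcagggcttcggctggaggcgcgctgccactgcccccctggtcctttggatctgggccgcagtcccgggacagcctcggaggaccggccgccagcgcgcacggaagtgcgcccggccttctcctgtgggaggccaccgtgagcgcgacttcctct

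The GC content of these stretches was 64.0% in *Itga4* and 64.4% in *Itgav*, against a median of 52.4% over the 32851 promoter stretches of that length in the table. *Itga4* held 1 GC box and *Itgav* 0, and 32.7% of all promoter stretches held at least 1. The letters AGGTCA and GGGTCA, half-sites known to bind retinoic acid (RA) receptors, were searched on both strands and occurred 0 times in both stretches. They were present in 23.8% of all promoter stretches and in 5 of the 26 (19.2%) that belong to the 23 integrin and laminin genes in the table.

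The levels of the genes were compared per kb of the longest annotated transcript (CPM per kb), as means of the 6 mice. The annotated exons of a gene together can be longer than that transcript, with 8092 against 4020 bp in *Itga7* and 9025 against 4310 bp in *Itga6*. In *Itgb5* they were 3553 against 3282 bp. Ranks and shares below therefore depend on the length used. *Itgb1*, the beta chain shared by most integrins of neural cells, had the highest level, with 17.4 CPM per kb and a range of 15.8 to 20.8. *Itga7*, the alpha chain of a laminin receptor, had 14.1 (11.7 to 17.1) and *Itgb5*, a partner of *Itgav*, 14.0 (12 to 17.1), and the mice of these 3 genes overlapped. The next were *Lamb1* with 8.73 CPM per kb, *Itga6* with 8.13, *Lamb2* with 7.10, *Itgav* with 7.02 and *Lamc1* with 6.88. Among the alpha chains of integrins, *Itga7* made up 26.8% of the summed level per kb, *Itga6* 15.5%, *Itgav* 13.4%, *Itgam* 10.3% and *Itga8* 10.1%. *Itgb1* and *Itgb5* made up 45.4% and 36.5% of the beta chains. Among the laminin alpha chains *Lama5* held 41.1% and *Lama2* 26.8%, and among the beta and gamma chains *Lamb1* held 34.2%, *Lamb2* 27.9% and *Lamc1* 27.0%.

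**Figure D1:**
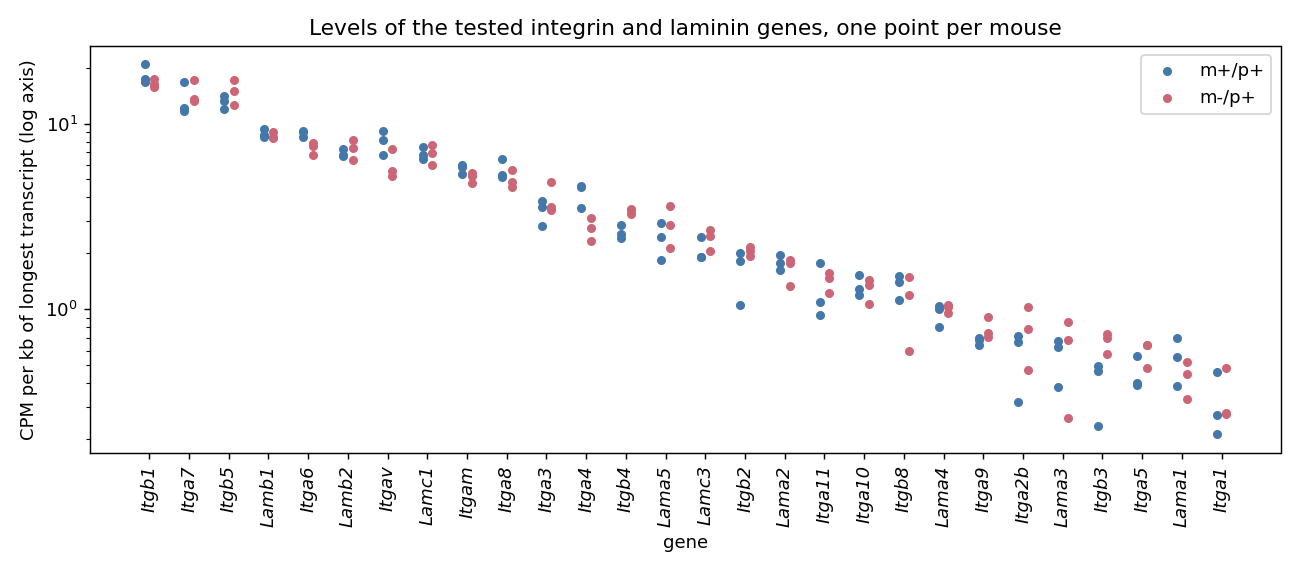
Levels of 28 of the 29 tested integrin and laminin genes in CPM per kb of the longest transcript (log axis), with 1 point per mouse and the genotypes side by side. *Itgb1*, *Itga7* and *Itgb5* are at the top, with means from 14.0 to 17.4, and *Itga1* is at the bottom, with 0.330.

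After edgeR's filter on low counts, 29 of the 37 genes were tested, 19 integrins and 10 laminins. The other 8 had 4 to 52 counts over the 6 libraries. They were *Itgb6* (4 counts), *Itgae* (5), *Itgad* (20), *Itgax* (20), *Itga2* (22), *Itgb7* (48), *Lamb3* (51) and *Itgal* (52). A library in which such a gene had 0 counts allows up to 3 counts, 0.265 to 0.411 CPM depending on the library, for counting error only. Of the chains that mark dendritic cells, T cells and other blood leukocytes, *Itgad*, *Itgae* and *Itgax* were at or under 3 counts in some libraries, and *Itgal* was detected in all 6 mice with 0.76 to 1.3 CPM, while *Itgam*, which microglia also use, had 22.3 to 28.1 CPM.

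Among the 29 genes tested, *Itga4* (3.45%) was the only gene past an adjusted p of 0.05 and a fold change of 1.2 (edgeR's quasi-likelihood test), against 2.01% of all 14445 genes tested in either direction, 0.990% with lower and 1.02% with higher expression. An unadjusted p below 0.05 was found in 5 genes (17.2%, against 24.6% of all genes), all of them integrins, with *Itga4*, *Itgav* and *Itga6* lower and *Itgb3* and *Itgb4* higher. All mice of one genotype lay above all mice of the other in 5 genes (17.2%, against 25.0% of all genes), *Itga4* and *Itga6* on the lower side and *Itga9*, *Itgb3* and *Itgb4* on the higher. The share called rests on 1 gene and was near that of all genes, and the other shares were under those of all genes. The median log2 fold change was 0.11 over the 29 genes, 0.13 over the integrins and 0.05 over the laminins, and 0.0025 over all genes. With 3 mice against 3, the exact two-sided permutation test cannot go below p = 0.1, which it reached in the genes without overlap.

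*Itga4* (chromosome 2 of GRCm38, 79255426 to 79333123) had 34.5, 45.1 and 44.4 CPM in WT mice 1, 2 and 3 and 30.3, 26.9 and 22.8 CPM in Ube3am-/p+ mice 1, 2 and 3. Every Ube3am-/p+ mouse was below every WT mouse, and the mice numbered 1 lay closest to each other. The means were 41.3 ± 5.92 CPM (SD, n = 3) and 26.7 ± 3.76 CPM (SD, n = 3), and on the log2 scale the difference was -0.62 (SE, the standard error, 0.13, edgeR adjusted p = 0.0362). The direction held when each mouse was left out in turn, with log2 fold changes from -0.73 to -0.52, and unadjusted p from 1.93e-05 to 0.0026 (edgeR). The adjusted p was above 0.05 without WT mouse 2 (0.232), WT mouse 3 (0.194), Ube3am-/p+ mouse 2 (0.251) or Ube3am-/p+ mouse 3 (0.142, edgeR), fits in which 0 to 2 genes of the whole table were differentially expressed. After the correction for GC content and length the log2 fold change was -0.35 (edgeR adjusted p = 0.0845). The longest *Itga4* transcript has a GC content of 41.1%, the second lowest of the 29 genes after *Itgb8* with 40.4%. With the mice numbered 2 and 3 alone the log2 fold change of *Itga4* was -0.83 (edgeR adjusted p = 3.02e-05), in a fit that called 4138 genes.

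Exons of *Itga4* overlap those of *Cerkl*, a ceramide kinase-like gene on the opposite strand, over 1124 bp, and the strand setting of the counting is not given in the sources used here. *Cerkl* had 5.54, 6.46 and 6.99 CPM in WT mice and 3.72, 4.51 and 4.18 CPM in Ube3am-/p+ mice, so that it was also lower in every Ube3am-/p+ mouse (log2 fold change -0.59, edgeR adjusted p = 0.12). *Cerkl* had 282 counts in all and *Itga4* 1821, and the part of the shared exons in either value was not tested. Of the known partners and ligands of the alpha4 chain, *Itgb7* had too few counts to be tested and *Itgb1*, *Vcam1* and *Fn1* did not pass the test. *Itgb1* had 63.8, 66.5 and 79.4 CPM in WT mice and 66.3, 62.2 and 60.3 CPM in Ube3am-/p+ mice, with overlap (log2 fold change -0.13, edgeR adjusted p = 0.427). *Vcam1* had a log2 fold change of -0.22 (edgeR adjusted p = 0.320) and *Fn1*, fibronectin, of -0.12 (edgeR adjusted p = 0.515). *Itga9*, the closest relative of *Itga4* among the alpha chains, had 4.83, 4.50 and 4.94 CPM in WT mice and 4.96, 6.36 and 5.23 CPM in Ube3am-/p+ mice. The lowest Ube3am-/p+ mouse was just above the highest WT mouse, with a log2 fold change of 0.24 (edgeR adjusted p = 0.530).

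*Itgav* (chromosome 2, 83724397 to 83806916) encodes the alphav chain, which binds vitronectin and other ligands with the sequence Arg-Gly-Asp and pairs with beta1, beta3, beta5, beta6 or beta8. It had 47.9, 57.4 and 64.3 CPM in WT mice and 51.6, 39.2 and 36.6 CPM in Ube3am-/p+ mice. Ube3am-/p+ mouse 1 was above WT mouse 1, and the genotypes overlapped. The log2 fold change was -0.40 (SE 0.13, edgeR adjusted p = 0.0925), and -0.20 after the correction for GC content and length (edgeR adjusted p = 0.329). It was called without WT mouse 1 (-0.50, edgeR adjusted p = 0.0161), without Ube3am-/p+ mouse 1 (-0.54, edgeR adjusted p = 0.0118) and without a filter on low counts (-0.39, edgeR adjusted p = 0.0412), and with the mice numbered 2 and 3 alone (-0.66, edgeR adjusted p = 6.54e-05). In that order, these fits called 2582 of 14646, 1816 of 14536, 1176 of 19291 and 4138 of 14631 genes, against 290 in the main fit.

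The beta partners of *Itgav* had values on both sides. *Itgb3* (chromosome 11, 104608000 to 104670476), known from platelets, microglia and synapses, had 2.71, 2.88 and 1.37 CPM in WT mice and 4.06, 4.24 and 3.33 CPM in Ube3am-/p+ mice. It rested on 177 counts in all, and its log2 fold change was 0.73 (SE 0.31, edgeR adjusted p = 0.154). *Itgb5* had 45.8, 39.5 and 43.5 CPM in WT mice and 41.5, 56.2 and 49.1 CPM in Ube3am-/p+ mice, with overlap, and a log2 fold change of 0.21 (edgeR adjusted p = 0.278). With the mice numbered 2 and 3 alone *Itgb5* was called, at 0.36 (edgeR adjusted p = 0.0106), in the fit that called 4138 of 14631 genes. *Itgb8*, known from glia as part of the activation of TGF-beta, had 11.8, 9.45 and 12.8 CPM in WT mice and 12.5, 9.99 and 5.04 CPM in Ube3am-/p+ mice. Ube3am-/p+ mouse 3 was the lowest of the 6, and the log2 fold change was -0.29 (edgeR adjusted p = 0.513). The correction brought *Itgb5* to 0.03 and *Itgb8* to -0.03, while *Itgb3* stayed at 0.70. The other alpha chains of the Arg-Gly-Asp group had log2 fold changes of 0.43 (*Itga5*), 0.42 (*Itga2b*) and -0.15 (*Itga8*), with adjusted p between 0.420 and 0.521 (edgeR).

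Laminin receptors were represented by *Itga3*, *Itga6* and *Itga7*, which pair with *Itgb1*, and by *Itgb4*, which pairs with *Itga6*. *Itga6* (chromosome 2, 71745616 to 71858416) had 36.6, 38.7 and 39.5 CPM in WT mice and 32.7, 29.0 and 33.8 CPM in Ube3am-/p+ mice, without overlap. Its log2 fold change was -0.25 (SE 0.11, edgeR adjusted p = 0.169), and -0.23 after the correction. It was called with the mice numbered 2 and 3 alone, at -0.30 (edgeR adjusted p = 0.0492), in the fit that called 4138 of 14631 genes. *Itgb4* (chromosome 11, 115974709 to 116008412) had 15, 15.8 and 17.7 CPM in WT mice and 20.2, 21.3 and 21.6 CPM in Ube3am-/p+ mice. These mice did not overlap either, and the mean was higher in Ube3am-/p+ mice, by a log2 fold change of 0.40 (SE 0.13, edgeR adjusted p = 0.0803). The *Itgb4* transcript has the highest GC content of the 29 genes, 60.0%, and the correction left 0.20 (edgeR adjusted p = 0.540). The 2 chains of this receptor thus lay on opposite sides, neither past the test.

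*Itga7* had 67.1, 48.5 and 47.2 CPM in WT mice and 54.4, 53.3 and 68.8 CPM in Ube3am-/p+ mice. The highest value of each genotype came from mice with different numbers, and the genotypes overlapped over most of their range. Its log2 fold change was 0.13 (SE 0.14, edgeR adjusted p = 0.594) and turned to -0.05 with the correction. In the other direction, it was 0.32 without WT mouse 1 (edgeR adjusted p = 0.077) and 0.37 with the mice numbered 2 and 3 alone, where it was called (edgeR adjusted p = 0.0257). That last fit called 4138 of 14631 genes. *Itga3* had a log2 fold change of 0.24 (edgeR adjusted p = 0.369). The collagen receptors *Itga1*, *Itga10* and *Itga11* lay between -0.04 and 0.17, with adjusted p of 0.690 or more (edgeR).

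**Figure D2:**
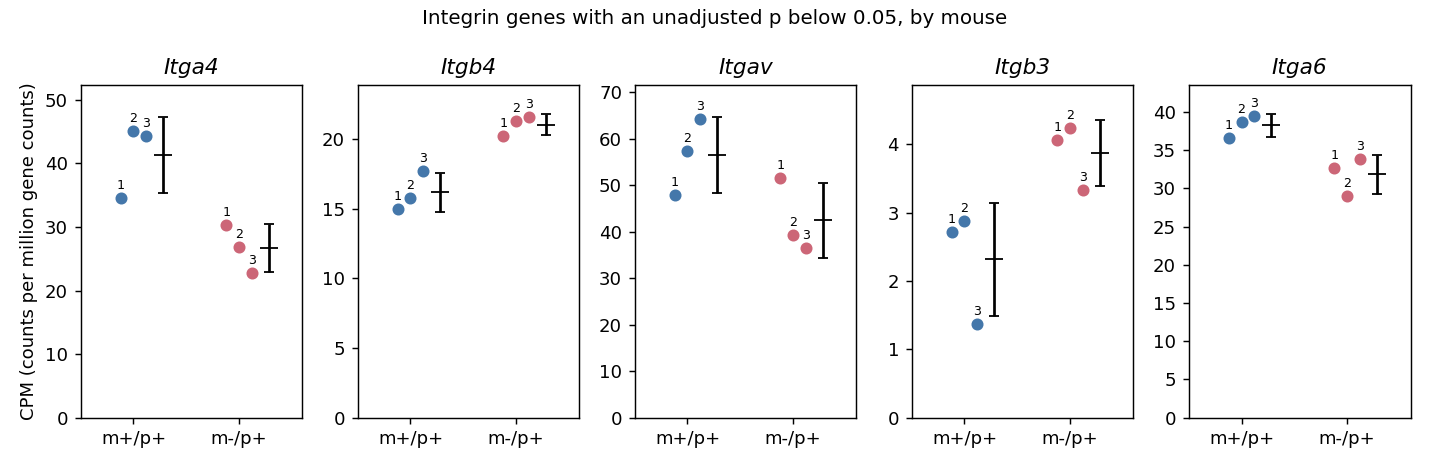
CPM of the 5 integrin genes with an unadjusted p below 0.05, on axes that start at 0. Points are mice, numbered as in the labels, and the black bar is the mean with the SD of 3 mice. The genotypes do not overlap in *Itga4*, *Itgb4*, *Itgb3* and *Itga6*, and Ube3am-/p+ mouse 1 (51.6 CPM) lies among the WT mice in *Itgav*.

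None of the 10 laminins tested was differentially expressed, none had an unadjusted p below 0.05 and none separated the genotypes (0 of 10, against 2.01%, 24.6% and 25.0% of all genes). DESeq2 called 0 of them too, with no adjusted p given for some at low counts. Log2 fold changes ranged from -0.31 (*Lama1*) to 0.27 (*Lama5*), with adjusted p from 0.394 to 0.981 (edgeR). The 3 most abundant beta and gamma chains, which join in the common laminins of vessel walls, varied little. *Lamb1* had 54.1, 49.1 and 50.3 CPM in WT mice and 48.9, 52.3 and 48.2 CPM in Ube3am-/p+ mice (log2 fold change -0.02, SE 0.10). *Lamc1* had 57.0, 49.2 and 51.7 CPM and 58.3, 52.9 and 45.7 CPM (log2 fold change 0.01, SE 0.11). *Lamb2* had 40.9, 37.8 and 38.1 CPM and 35.6, 41.7 and 45.8 CPM (log2 fold change 0.10, SE 0.11).

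The laminin alpha chains set where a laminin is bound. All of these had wider errors than the 3 chains above, from an SE of 0.15 (*Lama2*) to 0.37 (*Lama3*), with 0.27 for *Lama1* and 0.21 for *Lama4*. *Lama5*, of mature vessels and epithelia, had 27.9, 21.1 and 33.2 CPM in WT mice and 32.2, 40.9 and 24.5 CPM in Ube3am-/p+ mice (SE of the log2 fold change 0.19). *Lama3* had 4, 7.15 and 6.58 CPM and 7.21, 9.02 and 2.76 CPM (log2 fold change 0.12, SE 0.37). *Lama2*, known from pericytes and astrocyte end-feet, had 15.5, 18.8 and 17.0 CPM and 17.7, 17.1 and 12.9 CPM (log2 fold change -0.09, SE 0.15). *Lama4*, an endothelial chain, stayed between 4.84 and 6.36 CPM in all 6 mice. *Lama5* was lowest in WT mouse 2 and Ube3am-/p+ mouse 3, the libraries with the least choroid plexus RNA. The summed level of the 6 choroid plexus markers was 603, 101 and 2171 CPM in WT mice and 2260, 1604 and 107 CPM in Ube3am-/p+ mice, and none of these markers was at 0 over the libraries. *Bcam*, a receptor of *Lama5*, had 13.8, 9.91 and 14.9 CPM and 15.4, 20.2 and 11.7 CPM, with its lowest values in the same pair of mice. These genes were set beside each other after their values were seen, and the part of choroid plexus in them was not tested.

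**Figure D3:**
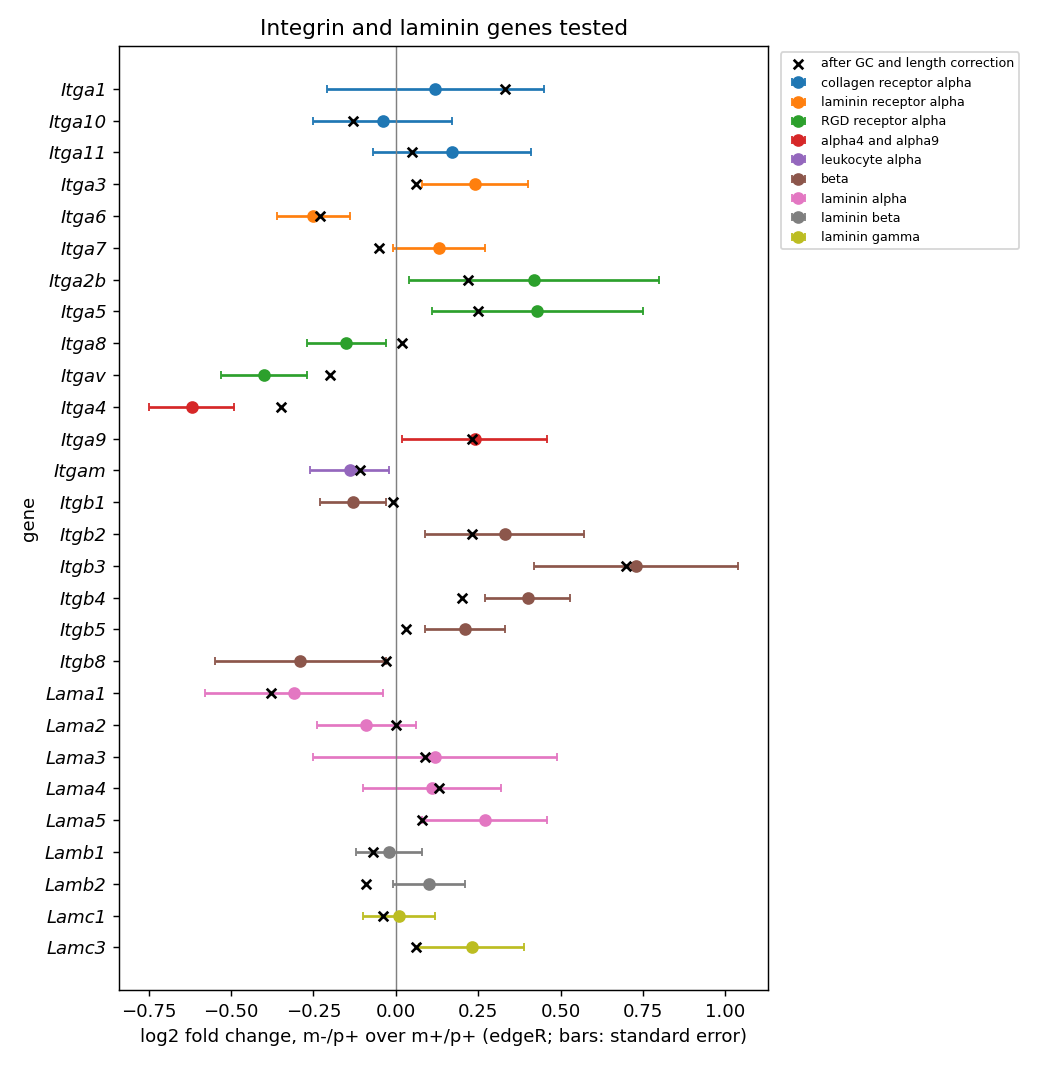
Log2 fold changes (Ube3am-/p+ over WT, edgeR) of 28 of the 29 genes tested, coloured by role, with the standard error as bars. Crosses are the values corrected for transcript GC content and length. *Itga4* is farthest to the left (-0.62) and its cross lies at -0.35, and the laminins shown lie between -0.31 and 0.27.

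The log2 fold changes of the integrins and laminins followed the GC content of their longest transcripts. Across the 29 genes, which share the same 6 libraries and are not replicates, Spearman's rho was 0.66 and Pearson's r was 0.67. Over the 14201 tested genes with an annotated transcript Spearman's rho was 0.62, so the relation was not particular to these genes. Of the 9 genes under 50% GC, 8 had a log2 fold change below 0, with a median of -0.15 over the 9. Of the 20 genes at 50% or more, 16 had a log2 fold change above 0, with a median of 0.19 over the 20. All genes had medians of -0.14 and 0.14 in the same ranges. After the correction rho was 0.22 across the 29 genes and 0.02 across all genes, and across the 29 genes the median absolute log2 fold change went from 0.21 to 0.11. The sign turned in 4 genes, *Itga7*, *Itga8*, *Lamb2* and *Lamc1*. GC content moved with genotype in the mice numbered 2 and 3, so that an effect of genotype and one of library composition cannot be told apart there.

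**Figure D4:**
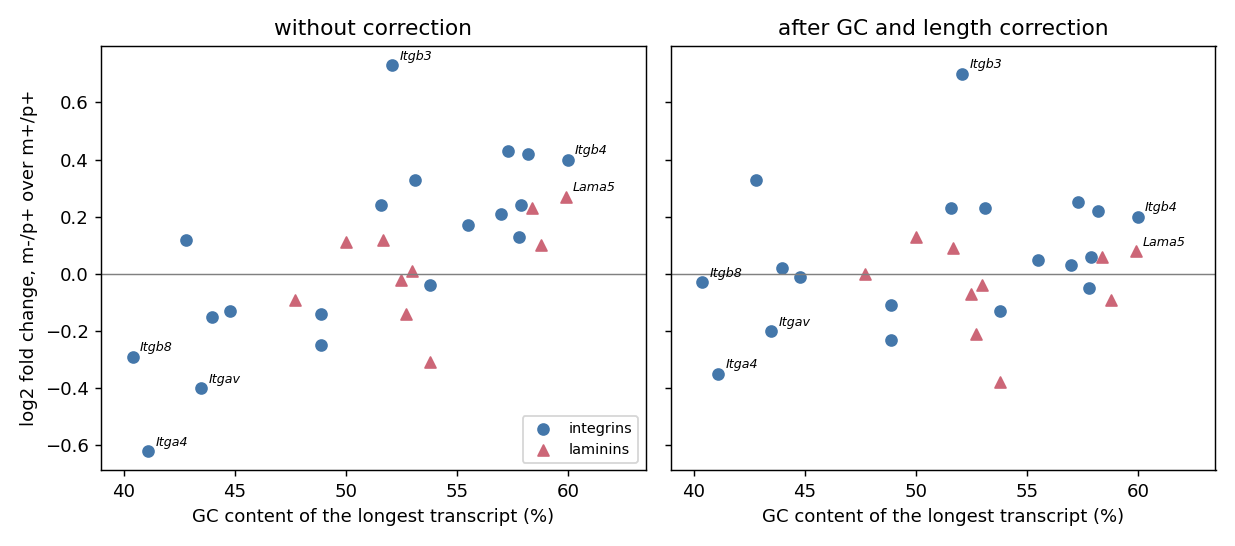
Log2 fold change against the GC content of the longest transcript in the 29 genes tested (circles, integrins, and triangles, laminins), without correction (left) and after correction for GC content and length (right). The slope on the left (rho 0.66) is largely gone on the right (rho 0.22), where *Itgb3* stands at 0.70 and *Itga4* at -0.35.

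Genes that work with integrins and laminins were read from 2 lists. Of 20 adaptors and kinases that integrins signal through, 19 were tested, 0 were differentially expressed and 6 had an unadjusted p below 0.05 (3 higher, 3 lower, 31.6% against 24.6% of all genes), with a median log2 fold change of -0.02. *Tln1*, talin, which activates integrins from inside the cell, had 57.1, 59.4 and 58.1 CPM in WT mice and 77.6, 71.7 and 71.2 CPM in Ube3am-/p+ mice. All Ube3am-/p+ mice were above all WT mice, with a log2 fold change of 0.35 (SE 0.09, edgeR adjusted p = 0.0507) and 0.22 after the correction (edgeR adjusted p = 0.205). *Vcl*, vinculin, which links talin to actin, had 66.0, 76.7 and 75.4 CPM and 63.0, 52.9 and 48.5 CPM. It lay on the lower side without overlap, with a log2 fold change of -0.39 (SE 0.11, edgeR adjusted p = 0.0591) and -0.35 after the correction (edgeR adjusted p = 0.0575). DESeq2, which called 967 of all 14445 genes, called *Tln1* (adjusted p = 0.0222) and *Vcl* (adjusted p = 0.0289), and no other gene of the list. *Tln1* and *Vcl* were the genes with the smallest p of their list and were chosen after their values were seen.

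Of 18 matrix and surface partners, 17 were tested, 0 were differentially expressed and 3 had an unadjusted p below 0.05 (17.6%, under the 24.6% of all genes), *Col4a1*, *Col4a2* and *Nid2*, with the higher mean in Ube3am-/p+ mice. These are the collagen IV chains and a nidogen, which join laminins in basement membranes. *Col4a2* had 119, 103 and 103 CPM in WT mice and 116, 144 and 151 CPM in Ube3am-/p+ mice, and the mice numbered 1 were alike. Its log2 fold change was 0.36 (edgeR adjusted p = 0.0688; DESeq2 called it, with 0.0346), and 0.15 after the correction. The median of the list was 0.16. *Dag1*, dystroglycan, a laminin receptor that is not an integrin, had a log2 fold change of 0.01, and *Agrn*, agrin, of 0.16 (adjusted p = 0.948 and 0.312, edgeR).

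The list of RA-regulated genes that the study drew from the literature holds 9 of the 37 genes by exact symbol. Of the 7 tested (*Itga8*, *Itgam*, *Itgav*, *Itgb2*, *Itgb3*, *Itgb4* and *Itgb5*), 0 were differentially expressed. *Itgb3* and *Itgb4* on the higher side and *Itgav* on the lower had an unadjusted p below 0.05 (42.9% of the 7, against 24.6% of all genes). *Itga4* is not on that list.

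Markers of the cell types that carry these genes were given by their summed CPM, none of them at 0 over all libraries. Endothelial markers (9 genes, 0 called) summed to 307 to 327 CPM in WT mice and 273 to 299.9 CPM in Ube3am-/p+ mice. Pericyte and smooth muscle markers (7 genes) summed to 202 to 221 CPM and 154 to 182 CPM, and *Rgs5*, a pericyte gene, was called, with a log2 fold change of -0.51 (edgeR adjusted p = 0.0387) and -0.29 after the correction, where the call was lost (edgeR adjusted p = 0.075). Meninges and fibroblast markers (8 genes) summed to 90.4 to 148 CPM and 95.8 to 177 CPM, with *Col1a1* called at 0.73 (edgeR adjusted p = 0.0416). Its call was lost after the correction too, at 0.55 (edgeR adjusted p = 0.075). Microglia markers (10 genes, 0 called) summed to 443 to 479 CPM and 422 to 437 CPM. Beside them, *Itgam* had 25.0, 28.1 and 27.1 CPM in WT mice and 22.3, 24.4 and 25.3 CPM in Ube3am-/p+ mice, with a log2 fold change of -0.14 (edgeR adjusted p = 0.493). Its partner *Itgb2* had 5.42, 5.99 and 3.15 CPM and 6.43, 5.74 and 6.08 CPM, with a log2 fold change of 0.33 (edgeR adjusted p = 0.423). Most exons of *Itgam* also belong to a second annotated gene of the same strand, *Gm49368* (3450 bp), which is not among the symbols counted. *Itgb4* shares 537 exonic bp with *B230344G16Rik* and *Itgav* 634 with *Gm13684*, both on the opposite strand. Astrocyte markers (6 genes) summed to 4505 to 5029 CPM and 3912 to 4237 CPM, oligodendrocyte markers (5) to 7534 to 7653 CPM and 6229 to 7146 CPM, and neuronal markers (6) to 10392 to 11013 CPM and 10387 to 11261 CPM, with 0 called in each list. Hippocampal region markers (6 genes, 0 called) summed to 2161 to 2592 CPM and 2366 to 3041 CPM, and markers of border macrophages and blood leukocytes (8 genes, 2 tested, 0 called) to 6.46 to 8.25 CPM and 7.78 to 8.17 CPM. The summed endothelial, pericyte, microglia, astrocyte and oligodendrocyte markers were each lower in every Ube3am-/p+ mouse than in every WT mouse, as *Itga4* was. The part of these cell types in the value of *Itga4* was not tested. The sums of the other lists overlapped between the genotypes. Of all single genes tested, 25.0% did not overlap. Single markers of the lists with lower sums went both ways, and the sums rest most on the abundant ones. The log2 fold change was above 0 in 6 of the 10 microglia markers, 4 of the 9 endothelial and 2 of the 7 pericyte markers. It was above 0 in 2 of the 6 astrocyte and 2 of the 5 oligodendrocyte markers. In the other lists it was above 0 in all 8 meninges and fibroblast markers and all 6 choroid plexus markers. The same held for 3 of the 6 neuronal, 2 of the 6 hippocampal region and 1 of the 2 tested border macrophage and blood leukocyte markers.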

How the data were processed

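RNA was extracted from the hippocampus, and libraries followed standard Illumina protocols. The authors deposited raw counts per gene symbol for each library, made with STAR 2.7.4a and HTSeq on mm10 per the submitters' processing notes, without normalization or pooling. The annotation and strand setting are not given in the sources used here. The 5 summary lines of each file were left out: 54.1% to 55.0% of reads lay on no gene and 3.71% to 5.77% had more than 1 alignment.

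Counts were analysed in R 4.3.3. Genes kept by filterByExpr (14445) were scaled by TMM and tested with edgeR 4.0.16 (quasi-likelihood, robust, genotype only, two-sided), with Benjamini-Hochberg adjustment over all of them. A gene was called, or differentially expressed, when its adjusted p was under 0.05 and it changed by more than 1.2-fold. CPM in the text uses total gene counts; TMM factors lay between 0.985 and 1.01. Library pairs differed by more than counting noise (chi-square per degree of freedom at least 3.78). The labels do not say that mice came from separate litters. Length and GC content are those of the longest GENCODE M21 transcript (GRCm38, the same assembly as mm10), found for 14201 genes (98.3%). The correction fitted natural splines (5 degrees of freedom each) to log2 CPM (prior count 2) per library. Alternatives were DESeq2 1.42.0, other scalings and filters, the replicate number as a block, and leaving out mice. Steps were tested on simulated data.

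Genes and lists were chosen with earlier results of these data known. Described with values were genes that were called, had an unadjusted p below 0.05 or were among the 3 with the highest CPM in their class (integrin alpha, integrin beta, laminin alpha, laminin beta or gamma). *Itga2b*, *Itga3*, *Itga5*, *Itga8*, *Itga9*, *Itgam*, *Itgb2*, *Itgb8*, *Lama1*, *Lama4* and *Bcam* were added after their values were seen. The values of 1 tested gene are not reported here, and the counts and medians include it.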

Additional observations from a re-analysis of the deposited data

How the results depend on the processing

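The number of integrin and laminin genes called, 1 as reported (*Itga4*), was 0 with the replicate block, 0 with the GC content and length correction and 0 with both, 2 without a filter on low counts, 4 with an unadjusted p and the same fold change, 5 with only the mice numbered 2 and 3 (chosen after seeing the data: *Itga4*, *Itga6*, *Itga7*, *Itgav* and *Itgb5*), and from 0 to 2 with 1 mouse left out. It was 1 with DESeq2. The number over all genes, 290 as reported, was 967 with DESeq2, 1176 without a filter, 92 with the correction, 13 with the correction and the block, 0 with the block, 2832 with an unadjusted p, 4138 with the mice numbered 2 and 3, and from 0 to 2582 with 1 mouse left out. Genes with an unadjusted p below 0.05 among the integrins and laminins, 5 as reported, were 3 with DESeq2, 3 with the correction and the block, 10 with the mice numbered 2 and 3 and from 3 to 7 with 1 mouse left out. Their median log2 fold change, 0.11 as reported, was 0.02 with the correction and 0.02 with the block added, and from 0.03 to 0.11 with 1 mouse left out.

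The deviations of same-numbered mice from the mean of their genotype had correlations of -0.285, -0.177 and -0.311. In the mice numbered 2 and 3, expression followed GC content in opposite directions in the genotypes, so these correlations cannot show whether mice were paired. Of all library pairs, WT mouse 1 and Ube3am-/p+ mouse 1 were the most alike (chi-square per degree of freedom 3.78). The log2 fold change of *Itga4* was -0.61 with the block (adjusted p = 0.216, edgeR), and over 16 alternative fits it lay between -0.83 and -0.34. All alternatives were read for the genes that were called, had an unadjusted p below 0.05 or were among the 3 highest of their class. Among those, the sign turned in 6 genes that were not called as reported. Of these, *Itga7* was called with the mice numbered 2 and 3, at 0.37, a fit in which its sign had not turned. Genes outside that choice turned too, such as *Itga8* (-0.15, and 0.02 with the correction) and *Itga1* (0.12, and -0.30 with the mice numbered 2 and 3). With the correction, without and with the block, *Itga7* was at -0.05 and -0.05, *Lamb2* at -0.09 and -0.10 and *Lamc1* at -0.04 and -0.04, and *Lama2* was at 0.00 with both. *Lamc1* was at -0.01 with library size only. With the mice numbered 2 and 3, *Lama3* was at -0.20, *Lamb1* at 0.03 and *Lamc1* at -0.02. With 1 mouse left out, *Itga7* ranged from -0.00 to 0.32, *Lama2* from -0.16 to 0.04, *Lama3* from -0.24 to 0.48, *Lamb1* from -0.05 to 0.02 and *Lamc1* from -0.07 to 0.09. The cause was not tested. The depth of single genes was low in places, with 177 counts for *Itgb3* and 339 for *Lama3*, and the share of their wide errors that comes from depth was not tested.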
